A study of Mus musculus with 2 samples.

Results

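Erfe/Chrdl2-high cells were cells of the satellite cell sorts from injured mouse muscle in which the summed UMIs of Erfe, Chrdl2, Clmn, Hmcn2 and Atf3 reached at least 10 per 10000 UMIs of the cell. A UMI is a molecular tag that counts 1 captured transcript. Of 3287 cells that passed the depth, gene and mitochondrial limits, 150 were Erfe/Chrdl2-high, 105 in the GFP+ library and 45 in the GFP− library. The remaining cells under the same exclusions of macrophage, mural and contractile RNA numbered 395 in the GFP+ library and 2337 in the GFP− library. The study sorted GFP+ and GFP− satellite cells from Pax3GFP/+ mice, whose GFP marks cells that use the Pax3 locus, and loaded them on a droplet instrument. Both fractions came from biceps and recto femoris muscles on day 5 after injury and shared that genotype, although a further field of the labels gives it as wild-type. Each fraction was 1 library, and the labels do not state how many animals were used, their age or sex, whether they were pooled, or what injured the muscle. The labels hold neither an uninjured muscle nor a replicate, so the library and the sorted fraction cannot be told apart and no difference was tested between conditions.

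Satellite cells are the stem cells of skeletal muscle and lie between the fibre and its basal lamina. They are marked by the paired box factor Pax7, and in some muscles also by its paralog Pax3. After injury they leave quiescence, divide as myoblasts that express Myod1, and either differentiate under Myog or return to the quiescent niche. Erfe encodes erythroferrone, a hormone that lowers hepcidin by binding BMP ligands and is best known from erythroid precursors. Chrdl2 encodes a chordin-like secreted BMP antagonist, Hmcn2 a hemicentin of the extracellular matrix, Clmn the actin-binding membrane protein calmin, and Atf3 a stress-inducible bZIP transcription factor.

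The promoters of the genes that define these cells are shown because the cells were chosen by the summed UMIs of these genes. The RefSeq table of GRCm38.p6 matched 4 of the 5 score genes, with 250 bases before and 50 after the start site. Chrdl2 had no entry. Capitals mark matches to the searched motifs on either strand, which were the E-box CANNTG of myogenic factors, the AP-1 site TGANTCA, the CRE core TGACGT, the MEF3 core TCAGGTT and the paired box core GTCACG of Pax factors.
Hmcn2, chr2:31314082-31314381, plus strand: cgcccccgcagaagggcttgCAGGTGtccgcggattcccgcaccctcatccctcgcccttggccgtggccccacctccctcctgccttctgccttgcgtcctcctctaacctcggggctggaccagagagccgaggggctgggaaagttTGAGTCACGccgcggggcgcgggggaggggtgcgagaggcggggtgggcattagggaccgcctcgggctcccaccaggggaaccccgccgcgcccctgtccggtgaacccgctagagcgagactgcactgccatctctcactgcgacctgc
Atf3, chr1:191183284-191183583, minus strand: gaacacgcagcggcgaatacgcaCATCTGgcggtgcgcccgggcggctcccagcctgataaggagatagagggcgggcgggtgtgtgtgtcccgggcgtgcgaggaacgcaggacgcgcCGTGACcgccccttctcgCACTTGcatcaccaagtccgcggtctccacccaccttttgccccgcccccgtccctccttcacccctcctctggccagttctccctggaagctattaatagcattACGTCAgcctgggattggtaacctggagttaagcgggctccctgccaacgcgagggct
Erfe, chr1:91366180-91366479, plus strand: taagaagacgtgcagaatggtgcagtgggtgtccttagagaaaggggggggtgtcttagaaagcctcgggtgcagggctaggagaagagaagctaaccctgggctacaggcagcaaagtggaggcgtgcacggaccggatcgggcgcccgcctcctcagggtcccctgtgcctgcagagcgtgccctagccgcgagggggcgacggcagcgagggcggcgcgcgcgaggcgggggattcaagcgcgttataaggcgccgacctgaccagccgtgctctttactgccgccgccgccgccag

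The Hmcn2 window held an E-box at −230 from the start site and an AP-1 site at −101, which overlapped a paired box core at −98. The Atf3 window held E-boxes at −227 and −113, a paired box core at −131 and a CRE core at −8. The Erfe window and that of Clmn, on chromosome 12, held no match to any of the 5 motifs. Of 32851 promoter windows of the same length, 72.3% held the E-box, 7.81% the AP-1 site, 7.51% the CRE core, 4.07% the MEF3 core and 8.22% the paired box core. A match is a description of letters and not a bound site. In the GENCODE annotation Erfe spans chromosome 1 from 91366430 to 91374217, Chrdl2 chromosome 7 from 100006172 to 100034728, Clmn chromosome 12 from 104763117 to 104865076 and Hmcn2 chromosome 2 from 31314415 to 31460738. Atf3 spans chromosome 1 from 191170296 to 191218039, so that the RefSeq start site used here lies inside the annotated gene.

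The files were unfiltered UMI counts with 718416 barcodes and 13928952 UMIs in the GFP+ library and 1361552 barcodes and 49709323 UMIs in the GFP− library, over 32286 features. The limits were 1000 UMIs and 500 genes as minima and 10% mitochondrial UMIs as a maximum, which left 604 GFP+ and 2683 GFP− cells. Macrophage RNA excluded 75 GFP+ and 57 GFP− cells, mural RNA 0 and 113, and contractile RNA 29 and 133, so that 500 GFP+ and 2382 GFP− cells remained eligible. The libraries shared 2 eligible barcodes and no Erfe/Chrdl2-high barcode. Scrublet marked only 3 GFP+ and 3 GFP− cells as doublets, none of them Erfe/Chrdl2-high. Levels are given as CPM, the UMIs of a gene per 1000000 UMIs summed over the cells of a class, with exact 95% Poisson intervals. Ratios carry exact conditional 95% intervals. All intervals cover counting error only, since each class of cells came from 1 library per fraction. Because the cells were picked from the same counts, levels set against the remaining cells are descriptions and not tests.

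Erfe/Chrdl2-high cells made up 21% of the eligible GFP+ cells (105 of 500, exact binomial interval 17.5 to 24.8%) and 1.89% of the eligible GFP− cells (45 of 2382, 1.38 to 2.52%). The share in the GFP+ library was therefore 11.1 times that in the GFP− library (7.77 to 16.1). Over all cells that passed the quality limits, the shares were 17.4% of GFP+ and 1.68% of GFP− cells. The ratio moved to 5.35 with a threshold of 5 per 10000, to 17.2 without Atf3 in the score and to 7.34 after each cell was thinned to 2000 UMIs. The sort by GFP can set these shares, and the free RNA in the droplets differed as well. In barcodes of 1 to 100 UMIs the 5 score genes summed to 3.11 per 10000 UMIs in the GFP+ library and 0.966 in the GFP− library, both under the threshold.

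The score had a median of 23.4 and a highest value of 90.7 per 10000 UMIs in GFP+ Erfe/Chrdl2-high cells, against a median of 20.96 and a highest value of 82.1 in GFP− Erfe/Chrdl2-high cells. The remaining cells had a median of 0.390 in the GFP+ library and 0 in the GFP− library. The lowest scores that passed were 10.1, 10.2, 10.32, 10.4 and 10.8 in GFP+ cells and 10.1, 10.7, 10.8, 11.1 and 11.1 in GFP− cells. Just outside the threshold lay GFP+ cells at 9.91, 9.88, 9.72, 9.31 and 9.10 and GFP− cells at 9.55, 9.44, 9.32, 9.30 and 9.25. No gap in the scores separated the classes, since 31 GFP+ and 76 GFP− cells scored between 5 and 10 per 10000. The score rested on a median of 14 UMIs a cell in the GFP+ library and 9 in the GFP− library, and 1 cell of each library passed on fewer than 3 UMIs.

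**Figure D1:**
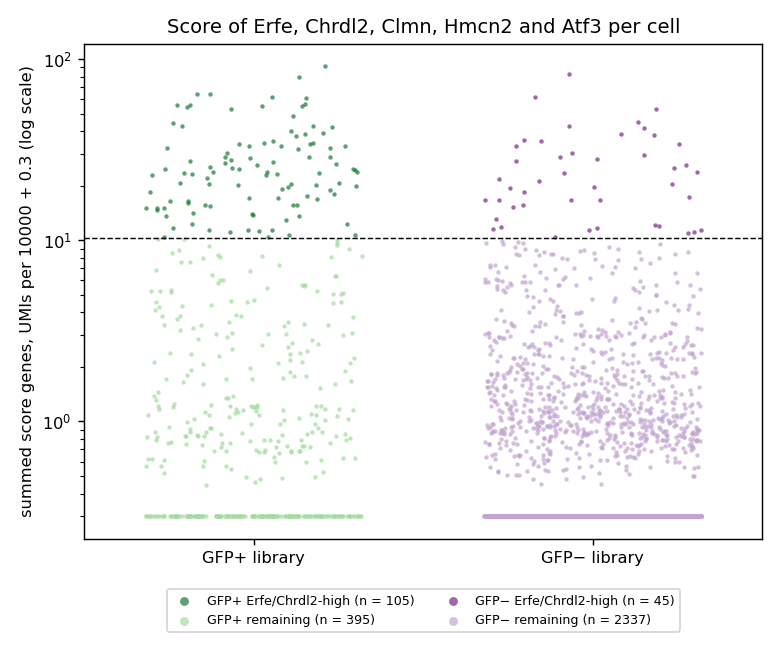
Each point is a cell, with the summed UMIs of the 5 score genes per 10000 UMIs plus 0.3 on a log axis and the GFP+ library left of the GFP− library; the dashed line is the threshold of 10. The 105 GFP+ and 45 GFP− cells above the line reach 90.7 and 82.1 per 10000, and cells fill the range just under it in both libraries.

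The score genes did not contribute equally, and their makeup differed between the libraries. Among GFP+ Erfe/Chrdl2-high cells, 90 of 105 (85.7%) held at least 3 of the 5 genes and 22 (20.95%) held all 5. Among GFP− Erfe/Chrdl2-high cells, 24 of 45 (53.3%) held at least 3 and 3 (6.67%) held all 5. Erfe was present in 74 GFP+ cells (70.5%) and 17 GFP− cells (37.8%), and Chrdl2 in 57 GFP+ and 13 GFP− cells. These counts were not matched for depth, and the GFP− cells were shallower, with a median of 3726 UMIs against 6322. After thinning, GFP+ and GFP− shares were 59.6% and 32.5% for Erfe and 29.8% and 17.5% for Chrdl2. They were 56.7% and 47.5% for Hmcn2, 32.7% and 35% for Clmn and 66.3% and 70% for Atf3. The GFP− class also included 7 cells with RNA of other types, described below, without a UMI of Erfe or Chrdl2. Atf3 supplied 37.9% of the score UMIs in GFP+ cells and 51.8% in GFP− cells, and 2 GFP+ and 8 GFP− cells passed with Atf3 alone. Without Atf3, 76 of the GFP+ and 21 of the GFP− cells would have reached 10 per 10000. Of the UMIs that made up the score, Erfe supplied 25.1% in the GFP+ and 16% in the GFP− class, and Chrdl2 supplied 8.55% in the GFP+ and 5.68% in the GFP− class.

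Erfe stood at 652 CPM in GFP+ Erfe/Chrdl2-high cells (593 to 715), against 18.2 in the remaining GFP+ cells, and at 349 CPM in GFP− Erfe/Chrdl2-high cells, against 10.2 in the remaining GFP− cells. Chrdl2 stood at 222 CPM in GFP+ Erfe/Chrdl2-high and 3.03 CPM in remaining GFP+ cells, and at 124 CPM in GFP− Erfe/Chrdl2-high and 1.36 CPM in remaining GFP− cells. Clmn reached 172 CPM in GFP+ and 193 CPM in GFP− Erfe/Chrdl2-high cells, Hmcn2 568 and 385 CPM, and Atf3 985 and 1128 CPM. These values chose the cells and are given as a description. Free droplet RNA held Erfe at 73.7 CPM in the GFP+ and 21.4 CPM in the GFP− library, above its level in the remaining cells of either library.

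Erfe/Chrdl2-high cells held far fewer UMIs than the cells around them. Their depth was 1193 to 17589 UMIs in the GFP+ library (median 6322) and 1032 to 20724 UMIs in the GFP− library (median 3726). The remaining cells had medians of 21927 UMIs in the GFP+ and 14820 in the GFP− library. Median genes per cell were 1986 in GFP+ Erfe/Chrdl2-high cells and 4380 in remaining GFP+ cells, and 1449 and 3673 in the GFP− library. Mitochondrial UMIs did not separate the classes to the same extent, with medians of 2.36% and 2.64% in GFP+ and 4.74% and 4.49% in GFP− Erfe/Chrdl2-high and remaining cells. In a joint clustering, cluster number 7 held 98 of the 105 GFP+ and 33 of the 45 GFP− Erfe/Chrdl2-high cells, along with 24 GFP+ and 23 GFP− remaining cells. That cluster was formed with the score genes included, so its makeup is no separate evidence.

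**Figure D2:**
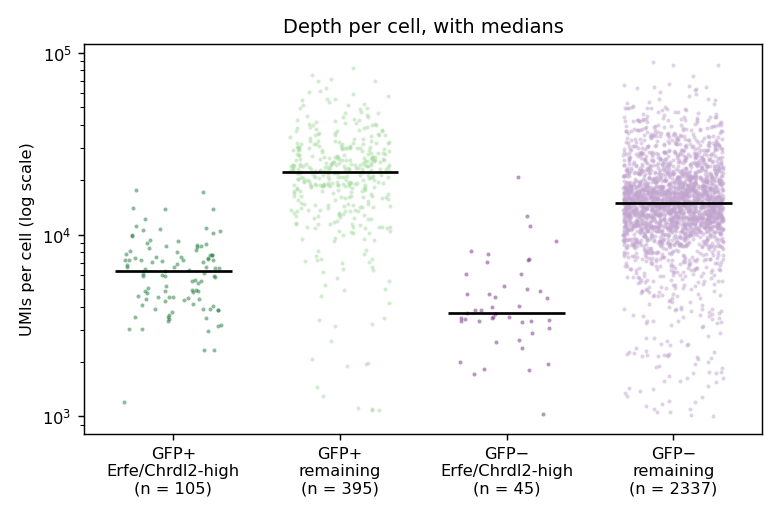
UMIs per cell on a log axis, each point a cell and each bar a median, with Erfe/Chrdl2-high cells left of remaining cells for the GFP+ and then the GFP− library. Medians of 6322 and 3726 UMIs in Erfe/Chrdl2-high cells lie under those of 21927 and 14820 UMIs in remaining cells.

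Because depth moved with the class, each gene was also set against remaining cells between the 10th and 90th percentile of the depth of the Erfe/Chrdl2-high cells, 3509 to 10358 UMIs in the GFP+ and 1974 to 8005 UMIs in the GFP− library. This left 30 remaining GFP+ cells, 16 of them in cluster number 7, and 219 remaining GFP− cells, 18 of them in that cluster. The 30 GFP+ cells had a median score of 5.04 per 10000, so they were near to passing the rule themselves. The same comparison was therefore repeated with the 14 GFP+ and 201 GFP− cells that lay outside the cluster. That cluster was taken for its highest mean score. Leaving out its cells removes remaining cells like the Erfe/Chrdl2-high ones, so larger ratios are set in part by this choice. Values called depth-matched below come from these smaller classes. They carry no interval, and for sparse genes they rest on few UMIs of the remaining cells.

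Of the GFP− Erfe/Chrdl2-high cells, 7 held at least 10 per 10000 UMIs of endothelial, glial or fibro-adipogenic markers, and none of the GFP+ Erfe/Chrdl2-high cells did. These 7 cells had no UMI of Pax7, Myf5, Erfe or Chrdl2, while all 7 had Atf3, with 65 UMIs in sum. They held all the UMIs of Sfrp2, Dcn, Ccl2 and Fn1 found in GFP− Erfe/Chrdl2-high cells, 96.4% of those of Col1a1 and 98.8% of those of Postn. Summed endothelial markers reached 17.3 CPM in GFP+ Erfe/Chrdl2-high cells and 15.1 CPM in the remaining GFP+ cells, with 9 of 10 markers at 0 in the Erfe/Chrdl2-high cells. Among GFP− cells they summed to 257 CPM in Erfe/Chrdl2-high and 29.4 CPM in remaining cells, and to 5.44 and 10.4 CPM in these classes without cells with RNA of other types. Macrophage markers summed to 28.9 and 72.9 CPM in GFP+ and to 27.5 and 9.48 CPM in GFP− Erfe/Chrdl2-high and remaining cells. Fibro-adipogenic markers summed to 808 and 402 CPM in the GFP+ library, where Dpt and Gsn were at least 2-fold higher in Erfe/Chrdl2-high cells and 5 markers were at 0. Among GFP− cells these summed to 1794 CPM in Erfe/Chrdl2-high and 235 CPM in remaining cells, with all 5 markers tested at least 2-fold higher, and to 1050.5 and 221 CPM without cells with RNA of other types, where Dpt and Gsn were the 2 tested and both were higher. The part of these markers in any result was not tested.

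Pax7 was higher in Erfe/Chrdl2-high than in remaining cells of both libraries. Of 16 listed identity genes, none was at 0 in GFP+ Erfe/Chrdl2-high cells and 1, Pax3, was at 0 in GFP− Erfe/Chrdl2-high cells. Pax7 stood at 534 CPM in GFP+ Erfe/Chrdl2-high cells (481 to 591) and 199 CPM in the remaining GFP+ cells, a ratio of 2.68 (2.39 to 3). In the GFP− library it stood at 399 CPM in Erfe/Chrdl2-high and 157 CPM in remaining cells, a ratio of 2.54 (2.03 to 3.14). With every cell thinned to 2000 UMIs, Pax7 was detected in 69.2% of GFP+ Erfe/Chrdl2-high (59.4 to 77.9%) and 35.2% of remaining GFP+ cells (30.5 to 40.2%), and in 47.5% and 28.1% of GFP− Erfe/Chrdl2-high and remaining cells. Without thinning the shares were 91.4% and 82.5% in the GFP+ and 64.4% and 75.8% in the GFP− library, so that in the GFP− library the order depended on depth. Thinning left out 1 and 9 GFP+ and 5 and 31 GFP− Erfe/Chrdl2-high and remaining cells. Macrophage-marked cells, which should lack Pax7 and had median depths of 13372 GFP+ and 8138 GFP− UMIs, showed it in 0 of 67 GFP+ and 0 of 48 GFP− thinned cells, which allows shares of cells with a UMI of up to 4.48% and 6.25%. Unthinned, 1 of 68 GFP+ (1.47%) and 5 of 51 GFP− macrophage-marked cells (9.80%) held it. Pax7 was found in 96 of the 105 GFP+ Erfe/Chrdl2-high cells (91.4%) and in 29 of the 38 GFP− cells (76.3%) that lacked RNA of other types. The depth-matched ratio of Pax7 was 0.994 in the GFP+ library with cells of cluster number 7 among the remaining cells and 1.90 without them, and 1.71 and 1.89 in the GFP− library.

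Across 14 satellite cell identity genes tested in the GFP+ library, 4 were at least 2-fold higher in Erfe/Chrdl2-high cells and none at least 2-fold lower, with a median log2 ratio of 0.58 beside −0.14 over all genes tested. At that level 459 of 3259 tested genes (14.1%) were higher and 513 (15.7%) lower in GFP+ Erfe/Chrdl2-high cells. Of the GFP− comparison, 551 of 3490 genes (15.8%) were higher and 484 (13.9%) lower, and 4 of 12 identity genes were higher, with a median of 0.41 beside −0.071. With depth-matched remaining cells, 114 genes were higher and 244 lower in the GFP+ library with cells of cluster number 7 among them, and 340 were higher and 538 lower without those cells. Genes were tested with at least 50 CPM in either class and at least 20 UMIs over both. The counts over all tested genes include the score genes, which chose the cells.

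Sdc4, a heparan sulphate proteoglycan on satellite cells, stood at 2466 CPM in GFP+ Erfe/Chrdl2-high and 369 CPM in remaining GFP+ cells, and at 1798 CPM in GFP− Erfe/Chrdl2-high and 283 CPM in remaining GFP− cells. Chodl, which encodes the membrane lectin chondrolectin, stood at 905 CPM in GFP+ Erfe/Chrdl2-high and 141 CPM in remaining GFP+ cells, and at 940.4 CPM in GFP− Erfe/Chrdl2-high and 94.9 CPM in remaining GFP− cells. Myf5, the earliest myogenic regulatory factor, differed less, with 535 CPM in GFP+ Erfe/Chrdl2-high and 306 CPM in remaining GFP+ cells, a ratio of 1.75 (1.57 to 1.95), and 289 CPM in GFP− Erfe/Chrdl2-high and 207 CPM in remaining GFP− cells. Cdh15, the M-cadherin of satellite cells and myoblasts, was lower in both, at 205 CPM in GFP+ Erfe/Chrdl2-high and 348 CPM in remaining GFP+ cells, and at 220.2 CPM in GFP− Erfe/Chrdl2-high and 372 CPM in remaining GFP− cells. Vcam1, an adhesion receptor, stood at 404 CPM in GFP+ Erfe/Chrdl2-high and 278 CPM in remaining GFP+ cells, and at 541 CPM in GFP− Erfe/Chrdl2-high and 269 CPM in remaining GFP− cells. Sdc4 and Chodl had the highest ratios among these genes in both libraries, and depth-matched Sdc4 had a ratio of 1.11 in the GFP+ library with cells of cluster number 7 and 2.71 without them.

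Pax3 was higher in GFP+ Erfe/Chrdl2-high than in remaining GFP+ cells, and its difference between the libraries is the one the sort was made on. Pax3 stood at 75.03 CPM in GFP+ Erfe/Chrdl2-high cells (56.03 to 98.4; 52 UMIs in 31 cells) and 19.4 CPM in remaining GFP+ cells, a ratio of 3.87 (2.79 to 5.30). No GFP− Erfe/Chrdl2-high cell held a UMI of Pax3, and the remaining GFP− cells held 5.48 CPM. GFP+ Erfe/Chrdl2-high cells thus held at least 5.45-fold more Pax3 than GFP− Erfe/Chrdl2-high cells, with 3 UMIs taken as the floor of the class, and remaining GFP+ cells held 3.53 times the level of remaining GFP− cells (2.88 to 4.33). After thinning, Pax3 was seen in 9.62% of GFP+ Erfe/Chrdl2-high and 4.92% of remaining GFP+ cells, and in 0 of 40 GFP− Erfe/Chrdl2-high cells, which allows a share of cells with a UMI of up to 7.50%. Without thinning, 29.5% and 32.4% of GFP+ Erfe/Chrdl2-high and remaining cells held it. The depth-matched ratio of Pax3 in the GFP+ library was 0.883 with cells of cluster number 7 and 1.51 without them. Six2, the homeobox gene named with Pax3 in the title of the series, stood at 8.66 CPM in GFP+ Erfe/Chrdl2-high and 26.5 CPM in remaining GFP+ cells, and at 13.8 CPM in GFP− Erfe/Chrdl2-high and 8.38 CPM in remaining GFP− cells. A reporter feature that the deposited gene list calls H2BGFP-2A-TVA-2A-B19G, which the labels do not describe, stood at 102 CPM in GFP+ Erfe/Chrdl2-high and 51.7 CPM in remaining GFP+ cells, and had no UMI in either class of GFP− cells.

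Genes of quiescence were high in Erfe/Chrdl2-high cells on day 5, apart from the cell cycle inhibitor Cdkn1c, which was far lower. Of 18 quiescence genes tested in the GFP+ library, 14 were at least 2-fold higher and 1 lower, with a median log2 ratio of 1.76. Of 16 tested in the GFP− library, 9 were higher and 1 lower, with a median of 1.49. Calcr, the calcitonin receptor that holds satellite cells in quiescence, stood at 77.9 CPM in GFP+ Erfe/Chrdl2-high cells (54 UMIs in 32 cells) and 6.28 CPM in remaining GFP+ cells, a ratio of 12.4 (8.41 to 18.3). GFP− Erfe/Chrdl2-high cells held it at 32.1 CPM on 7 UMIs and remaining GFP− cells at 3.13 CPM, which is under the floor of 50 CPM. Cd34, a sialomucin of quiescent satellite cells, stood at 119.8 CPM in GFP+ Erfe/Chrdl2-high and 8.55 CPM in remaining GFP+ cells, and at 82.6 CPM in GFP− Erfe/Chrdl2-high and 4.89 CPM in remaining GFP− cells, ratios of 14.01 (10.2 to 19.3) in the GFP+ and 16.9 (9.79 to 27.4) in the GFP− library. Gas1, a membrane protein first described in growth-arrested cells, stood at 1138 CPM in GFP+ Erfe/Chrdl2-high and 144 CPM in remaining GFP+ cells, and at 647 CPM in GFP− Erfe/Chrdl2-high and 103 CPM in remaining GFP− cells. Spry1, an inhibitor of receptor tyrosine kinase signalling needed for return to quiescence, had ratios of 5.11 (4.31 to 6.03) in the GFP+ and 3.83 (2.69 to 5.31) in the GFP− library.

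After thinning to 2000 UMIs, Calcr was detected in 14.4% of GFP+ Erfe/Chrdl2-high and 3.37% of remaining GFP+ cells, and in 12.5% and 0.911% in the GFP− library. Cd34 was detected in 22.1% and 3.63% of GFP+ and 12.5% and 0.824% of GFP− Erfe/Chrdl2-high and remaining cells, and Gas1 in 61.5% and 25.4% of GFP+ and 62.5% and 18.99% of GFP− cells. Both Calcr and Cd34 were therefore present in a minority of the class at that depth. The depth-matched ratios in the GFP+ library were 2.18 for Calcr, 1.41 for Cd34 and 2.05 for Gas1 with cells of cluster number 7. Without them the ratios were 9.42, 4.83 and 4.75, where those of Calcr and Cd34 rest on at most a few UMIs of the remaining cells.

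Cdkn1c, which encodes the CDK inhibitor p57 of cells leaving the cycle, stood at 76.5 CPM in GFP+ Erfe/Chrdl2-high cells (53 UMIs in 9 cells) and 1688 CPM in remaining GFP+ cells, a ratio of 0.0453 (0.0339 to 0.0593). GFP− Erfe/Chrdl2-high cells held 243 CPM, where 1 cell had 26 of 53 UMIs, and remaining GFP− cells held 1911 CPM, a ratio of 0.127 (0.0953 to 0.166). It was detected in 4.81% of thinned GFP+ Erfe/Chrdl2-high cells and 57.0% of remaining GFP+ cells, and in 12.5% and 60.4% in the GFP− library. No other quiescence gene was 2-fold lower in either library. Cebpb, a bZIP factor that acts against Myod1, stood at 2928 CPM in GFP+ Erfe/Chrdl2-high and 413 CPM in remaining GFP+ cells, and at 2238 CPM in GFP− Erfe/Chrdl2-high and 271 CPM in remaining GFP− cells. Gpx3, a secreted glutathione peroxidase, stood at 1532 CPM in GFP+ Erfe/Chrdl2-high and 434 CPM in remaining GFP+ cells, and at 1220.2 CPM in GFP− Erfe/Chrdl2-high and 346 CPM in remaining GFP− cells. Tgfbr3, the TGF-beta co-receptor betaglycan, had ratios of 5.74 in the GFP+ and 6.75 in the GFP− library.

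Genes of differentiation and of the sarcomere were more often lower than higher in Erfe/Chrdl2-high cells, and Lmod2 and Cdkn1a were among the higher ones. Of 11 differentiation genes tested in each library, 2 were at least 2-fold higher in each, 5 were lower in the GFP+ library and 6 in the GFP− library, with median log2 ratios of −0.78 and −2.01. Myog, the factor that starts terminal differentiation, stood at 123 CPM in GFP+ Erfe/Chrdl2-high cells and 557 CPM in remaining GFP+ cells, a ratio of 0.220 (0.175 to 0.273). On the GFP− side Myog stood at 91.7 CPM in Erfe/Chrdl2-high and 414 CPM in remaining cells, a ratio of 0.222 (0.135 to 0.342). These Myog UMIs lay in few cells, 85 in 8 GFP+ cells and 20 in 4 GFP− cells, of which 1 held 17. Myod1, the factor of activated myoblasts, stood at 143 CPM in GFP+ Erfe/Chrdl2-high and 87.4 CPM in remaining GFP+ cells, a ratio of 1.63 (1.31 to 2.02), and at 50.5 CPM in GFP− Erfe/Chrdl2-high and 79.4 CPM in remaining GFP− cells, a ratio of 0.636 (0.317 to 1.14). The Myod1 interval of the GFP− ratio included 1. The depth-matched ratio of Myog in the GFP+ library was 1.19 with cells of cluster number 7 and 0.674 without them.

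Mymk, which encodes the fusogen myomaker, stood at 2.89 CPM in GFP+ Erfe/Chrdl2-high and 54.7 CPM in remaining GFP+ cells, and Cdh2, the N-cadherin of fusing myoblasts, at 5.77 CPM in GFP+ Erfe/Chrdl2-high and 110.4 CPM in remaining GFP+ cells. Tnnt2, a troponin T of embryonic and regenerating muscle, had 1 UMI in GFP+ Erfe/Chrdl2-high cells against 175 CPM in remaining GFP+ cells, a ratio of 0.00823 (0.000208 to 0.0459). Tnnt2 had no UMI in GFP− Erfe/Chrdl2-high cells, at least 14.9-fold below the 205 CPM of the remaining GFP− cells. All 5 tested genes of the adult contractile apparatus were at least 2-fold lower in the GFP+ library and all 7 in the GFP− library. Among them, Ttn, the giant spring of the sarcomere, stood at 30.3 CPM in GFP+ Erfe/Chrdl2-high and 381 CPM in remaining GFP+ cells, and at 22.9 CPM in GFP− Erfe/Chrdl2-high and 457 CPM in remaining GFP− cells. The rule had already excluded cells rich in Acta1, Myh3, Mylpf and Tnnt3 from both classes. Lmod2, a leiomodin that elongates actin filaments in muscle, went the other way, at 361 CPM in GFP+ Erfe/Chrdl2-high cells (250 UMIs in 35 cells) and 8.55 CPM in remaining GFP+ cells, a ratio of 42.2 (32.6 to 55.1). On the GFP− side Lmod2 stood at 82.6 CPM in Erfe/Chrdl2-high cells, with all 18 UMIs in 3 cells, and at 2.79 CPM in remaining cells. Cdkn1a, which encodes the CDK inhibitor p21, stood at 443 CPM in GFP+ Erfe/Chrdl2-high and 220.5 CPM in remaining GFP+ cells, and at 381 CPM in GFP− Erfe/Chrdl2-high and 172 CPM in remaining GFP− cells.

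Transcripts of dividing cells were low in Erfe/Chrdl2-high cells. Of the G2 and mitosis genes, all 5 tested in the GFP+ library and all 8 tested in the GFP− library were at least 2-fold lower, with median log2 ratios of −3.95 and −3.12. The summed list of 20 genes reached 47.6 CPM in GFP+ Erfe/Chrdl2-high cells and 863 CPM in remaining GFP+ cells, and 32.1 and 1246 CPM in the GFP− library. In Erfe/Chrdl2-high cells 12 of the 20 genes had no UMI in the GFP+ and 14 in the GFP− library. Mki67, the Ki-67 antigen of cycling cells, had 3 UMIs, all in 1 GFP+ cell, and none in GFP− Erfe/Chrdl2-high cells, against 45.9 CPM in remaining GFP+ and 83.9 CPM in remaining GFP− cells. Top2a, the topoisomerase that untangles replicated chromosomes, stood at 14.4 CPM in GFP+ Erfe/Chrdl2-high and 109 CPM in remaining GFP+ cells, and at 4.59 CPM in GFP− Erfe/Chrdl2-high and 145 CPM in remaining GFP− cells. Ube2c, a ubiquitin-conjugating enzyme of mitotic exit, had no UMI in Erfe/Chrdl2-high cells of either library, against 86.1 CPM in remaining GFP+ and 129 CPM in remaining GFP− cells. Mki67 was seen in 0.962% of thinned GFP+ Erfe/Chrdl2-high and 5.96% of remaining GFP+ cells. On those 3 UMIs its depth-matched ratio was 0.968 in the GFP+ library with cells of cluster number 7. Without those cells the ratio of 0.174 took a class with no UMI as 3 UMIs, so it gives no direction.

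In the S phase list, 2 of 4 genes tested were at least 2-fold lower in the GFP+ library, as were 6 of 7 among GFP− cells, and none was higher. The 2 in the GFP+ library were Rrm2 and Dut. Dut, an enzyme that breaks down dUTP, had a GFP+ ratio of 0.481, and depth matching turned it to 1.57 with cells of cluster number 7 and 1.70 without them. Rrm2, a subunit of the enzyme that makes deoxyribonucleotides, stood at 12.98 CPM in GFP+ Erfe/Chrdl2-high and 76.6 CPM in remaining GFP+ cells, and at 13.8 CPM in GFP− Erfe/Chrdl2-high and 80.2 CPM in remaining GFP− cells. Of the G1 genes, 2 of 9 were higher and 4 lower in the GFP+ library, and 2 of 10 were higher and 4 lower in the GFP− library. Ccnd1, the cyclin D1 of cell cycle entry, was among those higher, at 211 CPM in GFP+ Erfe/Chrdl2-high and 92.5 CPM in remaining GFP+ cells, and at 211 CPM in GFP− Erfe/Chrdl2-high and 88.2 CPM in remaining GFP− cells, whereas its partner Cdk4 stood at 139.9 CPM in GFP+ Erfe/Chrdl2-high and 303 CPM in remaining GFP+ cells, and at 119 CPM in GFP− Erfe/Chrdl2-high and 328 CPM in remaining GFP− cells. Cdkn2a, which encodes the p16 and p19 inhibitors, stood at 12.98 CPM in GFP+ Erfe/Chrdl2-high and 123 CPM in remaining GFP+ cells, and at 4.59 CPM in GFP− Erfe/Chrdl2-high and 88.8 CPM in remaining GFP− cells. The depth-matched ratio of Ccnd1 in the GFP+ library was 0.628 with cells of cluster number 7 and 0.728 without them.

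**Figure D3:**
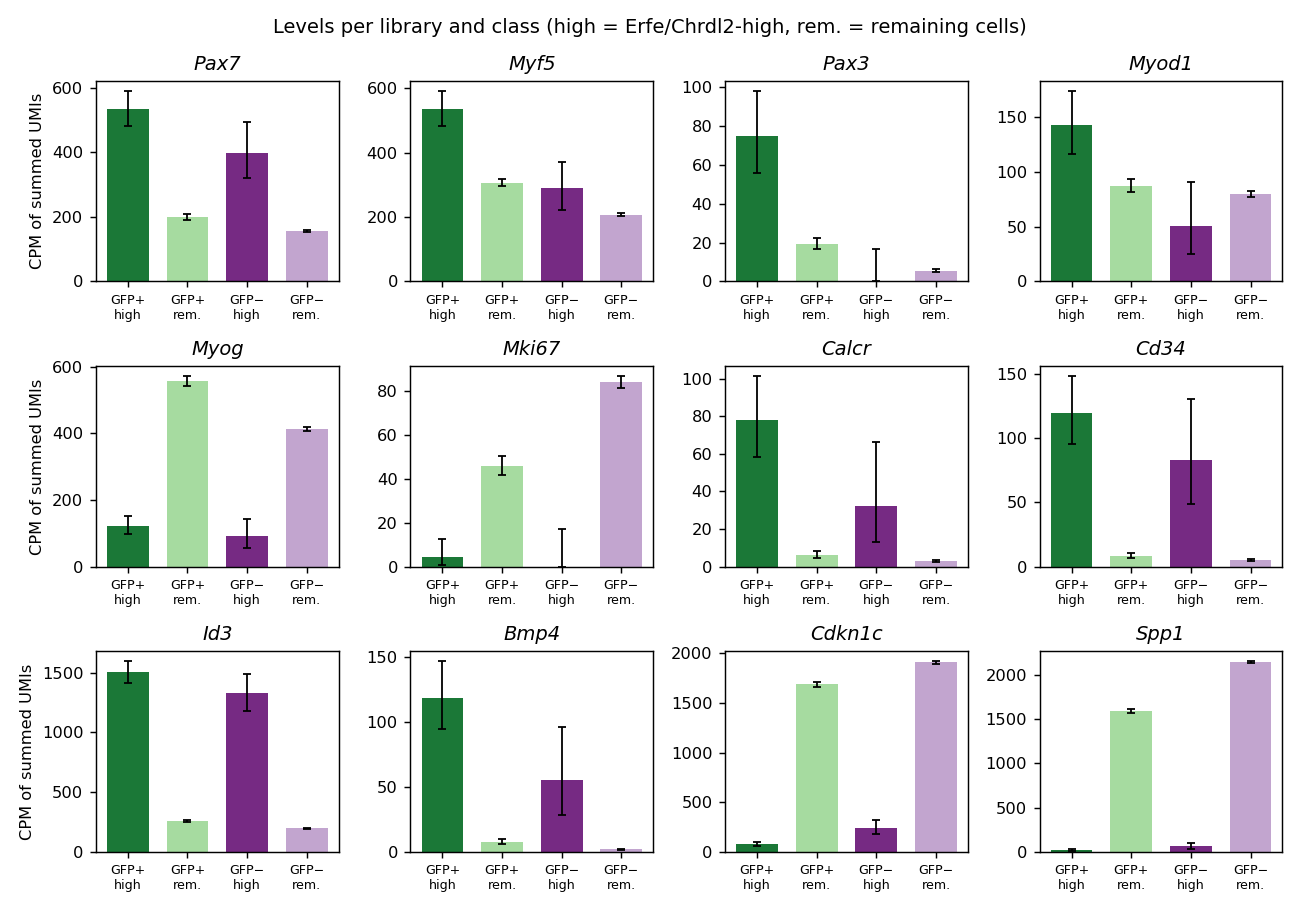
Bars give the CPM of summed UMIs and error bars exact 95% Poisson intervals for 12 genes, with Erfe/Chrdl2-high cells left of remaining cells for the GFP+ and then the GFP− library, and a separate axis for each gene. Pax7, Calcr, Cd34, Id3 and Bmp4 are higher and Myog, Mki67, Cdkn1c and Spp1 lower in Erfe/Chrdl2-high cells of both libraries, while Pax3 has no UMI in GFP− Erfe/Chrdl2-high cells.

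Immediate-early genes formed a high and broad component of these cells. Of 23 tested in the GFP+ library, 20 were at least 2-fold higher and none lower, with a median log2 ratio of 2.24. Of 24 tested in the GFP− library, 22 were higher and none lower, with a median of 2.65. Without the 7 cells with RNA of other types, 19 of 22 were higher there, and Nr4a2, Nr4a3 and Klf2 were not called. The list included genes induced by the same stimuli as Atf3, which was part of the score, so its direction is not separate evidence. Fos, a subunit of AP-1, stood at 1928 CPM in GFP+ Erfe/Chrdl2-high and 451 CPM in remaining GFP+ cells, and at 3018 CPM in GFP− Erfe/Chrdl2-high and 295 CPM in remaining GFP− cells. Jund, an AP-1 subunit also present in resting cells, stood at 8152 CPM in GFP+ Erfe/Chrdl2-high and 1287 CPM in remaining GFP+ cells, and at 4339.5 CPM in GFP− Erfe/Chrdl2-high and 734 CPM in remaining GFP− cells. Egr1, a zinc finger factor induced by serum, stood at 1759 CPM in GFP+ Erfe/Chrdl2-high and 258 CPM in remaining GFP+ cells, and at 1491 CPM in GFP− Erfe/Chrdl2-high and 178 CPM in remaining GFP− cells.

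The orphan nuclear receptor gene Nr4a1 had ratios of 9.35 (7.85 to 11.1) in the GFP+ and 20.9 (16.2 to 26.7) in the GFP− library. Its relative Nr4a3 had 11.4 in the GFP+ and 13.4 in the GFP− library, where it was not called without the 7 cells with RNA of other types. Fosb stood at 2018 CPM in GFP+ Erfe/Chrdl2-high and 226 CPM in remaining GFP+ cells, and at 1766 CPM in GFP− Erfe/Chrdl2-high and 179.7 CPM in remaining GFP− cells. The zinc finger factor Klf4 stood at 1030.2 CPM in GFP+ Erfe/Chrdl2-high and 119.5 CPM in remaining GFP+ cells, and at 844 CPM in GFP− Erfe/Chrdl2-high and 95.01 CPM in remaining GFP− cells. The small Maf gene Maff had ratios of 9.33 in the GFP+ and 12.7 in the GFP− library, and its depth-matched ratio in the GFP+ library was 0.844 with cells of cluster number 7 and 6.66 without them. Klf6, with ratios of 0.751 in the GFP+ and 1.63 in the GFP− library, did not pass 2-fold in either library, and its GFP− ratio was 0.987 without the 7 cells with RNA of other types. After thinning, macrophage-marked cells of the same sorts held Fos in 82.1% of GFP+ and 81.3% of GFP− cells and Atf3 in 38.8% and 39.6%.

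Heat shock and stress response genes were split. Of 13 heat shock genes, 6 were at least 2-fold higher and 1 lower in the GFP+ library and 6 higher and 2 lower in the GFP− library. Hspa1a, an inducible HSP70 gene, stood at 281 CPM in GFP+ Erfe/Chrdl2-high and 32.8 CPM in remaining GFP+ cells, and at 271 CPM in GFP− Erfe/Chrdl2-high and 27.1 CPM in remaining GFP− cells, and its near-identical neighbour Hspa1b could share reads with it. Cryab, a small heat shock protein of muscle, stood at 691 CPM in GFP+ Erfe/Chrdl2-high and 201 CPM in remaining GFP+ cells, and at 908 CPM in GFP− Erfe/Chrdl2-high and 205 CPM in remaining GFP− cells. The mitochondrial chaperonin gene Hspe1 was lower, at 294 CPM in GFP+ Erfe/Chrdl2-high and 684 CPM in remaining GFP+ cells, and at 211 CPM in GFP− Erfe/Chrdl2-high and 594 CPM in remaining GFP− cells. Of the integrated stress response genes, 4 of 7 were higher and 1 lower in the GFP+ library and 6 of 8 were higher among GFP− cells, or 4 higher and 1 lower of 8 without the 7 cells with RNA of other types. Ppp1r15a, the GADD34 phosphatase subunit that reverses eIF2alpha phosphorylation, had ratios of 5.56 (4.91 to 6.29) in the GFP+ and 5.79 (4.61 to 7.17) in the GFP− library. Ddit3, which encodes the factor CHOP, stood at 25.97 CPM in GFP+ Erfe/Chrdl2-high and 23.2 CPM in remaining GFP+ cells, and at 73.4 CPM in GFP− Erfe/Chrdl2-high and 21.2 CPM in remaining GFP− cells. The depth-matched ratio of Hspa1a was 1.16 in the GFP+ library with cells of cluster number 7 and 2.13 without them, and that of Hspa1b was 0.577 and 0.605.

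The BMP pathway was of interest because Erfe and Chrdl2 both encode proteins that bind BMPs. Among the ligands, Bmp4 stood at 118 CPM in GFP+ Erfe/Chrdl2-high cells (94.1 to 147; 82 UMIs in 46 cells) and 7.57 CPM in remaining GFP+ cells, a ratio of 15.6 (11.2 to 21.8). Among GFP− cells Bmp4 stood at 55.05 CPM in Erfe/Chrdl2-high cells on 12 UMIs and at 1.74 CPM in remaining cells, a ratio of 31.6 (15.6 to 58.9). Bmp6, a ligand that erythroferrone can bind, stood at 144 CPM in GFP+ Erfe/Chrdl2-high and 19.8 CPM in remaining GFP+ cells, and at 87.2 CPM in GFP− Erfe/Chrdl2-high and 13.8 CPM in remaining GFP− cells, ratios of 7.29 (5.65 to 9.35) in the GFP+ and 6.32 (3.78 to 9.97) in the GFP− library. Bmp1, which is listed with the ligands but encodes a matrix protease, had ratios of 1.14 in the GFP+ and 1.21 in the GFP− library and did not pass 2-fold. Among the receptors and Smads, Smad1, a transducer of BMP receptors, had a ratio of 2.11 (1.51 to 2.88) in the GFP+ library and 0.824 (0.331 to 1.70) in the GFP− library, where none of the 3 genes tested passed 2-fold. Bmpr2, the type II receptor, had a ratio of 1.49 in the GFP+ library. The depth-matched ratio in the GFP+ library was 1.89 for Bmp4 and 0.896 for Bmp6 with cells of cluster number 7. Without them the ratios were 14.3 and 1.74, where that of Bmp4 rests on at most a few UMIs of the remaining cells.

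Of the BMP target genes, Id3, an inhibitor of basic helix-loop-helix factors, stood at 1503 CPM in GFP+ Erfe/Chrdl2-high cells (1414 to 1598) and 259 CPM in remaining GFP+ cells, a ratio of 5.81 (5.40 to 6.25). Among GFP− cells Id3 stood at 1326 CPM in Erfe/Chrdl2-high and 198 CPM in remaining cells, a ratio of 6.70 (5.93 to 7.53). Id2 had ratios of 2.23 in the GFP+ and 2.66 in the GFP− library, and Id1 ratios of 1.43 in the GFP+ and 1.73 in the GFP− library, so that the 3 Id genes ranked in the same order in both libraries. Id3 was detected in 75% of thinned GFP+ Erfe/Chrdl2-high and 26.9% of remaining GFP+ cells, in 62.5% and 26.3% in the GFP− library, and in 20.9% and 22.9% of macrophage-marked GFP+ and GFP− cells. The depth-matched ratio of Id3 was 2.40 in the GFP+ library with cells of cluster number 7 and 2.39 without them. None of the 3 antagonists tested in the GFP+ library differed 2-fold, and 6 of the 13 listed had no UMI in GFP+ Erfe/Chrdl2-high cells. Fstl1, a secreted follistatin-like protein, stood at 203 CPM in GFP+ Erfe/Chrdl2-high and 265 CPM in remaining GFP+ cells, and its GFP− ratio of 2.77 was 0.930 without the 7 cells with RNA of other types. Smad7, an inhibitory Smad, was 2-fold higher in the GFP− library, with a ratio of 3.06. Without the 7 cells its ratio was 2.66 and its level 43.5 CPM, under the floor of 50 CPM, and Twsg1 was then the only one of 3 inhibitors tested that was 2-fold higher.

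Of 9 Notch pathway genes tested in the GFP+ library, 3 were at least 2-fold higher and 1 lower, and of 8 in the GFP− library 2 were higher and 1 lower. Hes1, a Notch effector, stood at 180.3 CPM in GFP+ Erfe/Chrdl2-high and 68.1 CPM in remaining GFP+ cells, and at 133 CPM in GFP− Erfe/Chrdl2-high and 59.3 CPM in remaining GFP− cells. Jag1, a Notch ligand, had a ratio of 2.68 and the receptor Notch3 one of 2.37 in the GFP+ library. Hes6, which opposes Hes1, was lower in both, at 20.2 CPM in GFP+ Erfe/Chrdl2-high and 86.3 CPM in remaining GFP+ cells, and at 13.8 CPM in GFP− Erfe/Chrdl2-high and 89.7 CPM in remaining GFP− cells. Depth matching turned Notch3 to 0.937 in the GFP+ library with cells of cluster number 7 and 0.872 without them, and left Jag1 at 1.08 and 1.02, while Hes6 stayed lower at 0.347 and 0.305. It took Hes1 to 1.39 with those cells and turned it to 0.948 without them, and with a score that left out Atf3 the GFP− ratio of Hes1 turned to 0.932.

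Receptors for growth factors and cytokines were more often higher than lower in these cells. Of 12 tested in the GFP+ library 7 were at least 2-fold higher and 1 lower, with a median log2 ratio of 1.14. Of 13 in the GFP− library 6 were higher and 1 lower, with a median of 0.75. Without the 7 cells with RNA of other types, 5 of 13 were higher there and 1, Tgfbr2, was lower. F2r, a receptor activated by thrombin, stood at 261 CPM in GFP+ Erfe/Chrdl2-high and 36.1 CPM in remaining GFP+ cells, and at 138 CPM in GFP− Erfe/Chrdl2-high and 14.5 CPM in remaining GFP− cells. Fgfr1, a receptor for FGF2 that promotes activation, had ratios of 3.37 in the GFP+ and 3.71 in the GFP− library, and Osmr, the oncostatin M receptor, of 4.09 in the GFP+ and 4.02 in the GFP− library. Met, the receptor for hepatocyte growth factor, was the gene that was lower in both libraries with all cells counted. Its GFP− ratio was 0.492, or 0.580 without the 7 cells with RNA of other types. It stood at 34.6 CPM in GFP+ Erfe/Chrdl2-high and 71.1 CPM in remaining GFP+ cells. The GFP− library held it at 41.3 CPM in Erfe/Chrdl2-high and 83.99 CPM in remaining cells. Depth matching gave F2r a ratio of 0.912 in the GFP+ library with cells of cluster number 7 and 2.87 without them.

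The extracellular matrix genes went both ways, and the balance in the GFP− library turned when the cells with RNA of other types were left out. Of 26 tested in the GFP+ library, 5 were at least 2-fold higher and 9 lower, with a median log2 ratio of −0.63. Of 27 tested in the GFP− library, 6 were higher and 4 lower, with a median of 0.52. Without the 7 cells with RNA of other types, 3 of 25 were higher and 10 lower in the GFP− library, with a median of −0.16. Col15a1, a collagen at basement membranes, stood at 141 and 13.1 CPM in GFP+ Erfe/Chrdl2-high and remaining cells, a ratio of 10.8 (8.19 to 14.2). It was not called in the GFP− library, with or without the cells with RNA of other types. Between the libraries, Col15a1 was at least 2-fold higher in GFP+ than in GFP− Erfe/Chrdl2-high cells. Col4a1, a chain of the basement membrane collagen IV, had ratios of 2.43 in the GFP+ and 1.92 in the GFP− library, and Lamc1, a laminin chain, of 2.37 in the GFP+ and 2.27 in the GFP− library. Lamb1, a further laminin chain, went the other way, at 21.6 CPM in GFP+ Erfe/Chrdl2-high and 91.9 CPM in remaining GFP+ cells, and at 9.17 CPM in GFP− Erfe/Chrdl2-high and 87.9 CPM in remaining GFP− cells. Prelp, a proteoglycan that anchors basement membranes, stood at 179 CPM in GFP+ Erfe/Chrdl2-high and 20.1 CPM in remaining GFP+ cells, and at 169.7 CPM in GFP− Erfe/Chrdl2-high and 8.25 CPM in remaining GFP− cells.

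Spp1, which encodes osteopontin, stood at 15.9 CPM in GFP+ Erfe/Chrdl2-high cells (11 UMIs in 9 cells) and 1596 CPM in remaining GFP+ cells, a ratio of 0.00995 (0.00496 to 0.0178). In the GFP− library it stood at 59.6 CPM in Erfe/Chrdl2-high and 2147 CPM in remaining cells, a ratio of 0.0278 (0.0148 to 0.0475). Among thinned cells, 3.85% of GFP+ Erfe/Chrdl2-high and 40.4% of remaining GFP+ cells held Spp1, and 10.0% and 56.8% in the GFP− library. Depth-matched ratios of Spp1 were 0.0467 in the GFP+ and 0.0500 in the GFP− library with cells of cluster number 7, so this gene stayed low at matched depth. Fn1, fibronectin, and Tnc, tenascin C, stood at 5.77 and 10.1 CPM in GFP+ Erfe/Chrdl2-high cells and at 263 and 206 CPM in remaining GFP+ cells. Col1a1, the major chain of interstitial collagen, stood at 30.3 and 736 CPM in GFP+ Erfe/Chrdl2-high and remaining cells, and at 766 CPM in GFP− Erfe/Chrdl2-high and 329 CPM in remaining GFP− cells. One GFP− cell held 160 of the 167 Col1a1 UMIs, and without the 7 cells with RNA of other types the GFP− ratio was 0.109 instead of 2.33.

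Of 8 MHC class I and interferon genes tested in the GFP+ library, 3 were at least 2-fold higher and 3 lower, and of 9 in the GFP− library 3 were higher. Without the 7 cells with RNA of other types, H2-Q4 and Irf1 were higher and Isg15, Bst2 and Cxcl10 lower of 9 in the GFP− library. The classical MHC gene H2-D1, whose GFP− ratio of 2.37 was 1.68 without those cells, stood at 517 CPM in GFP+ Erfe/Chrdl2-high and 218 CPM in remaining GFP+ cells, and at 445 CPM in GFP− Erfe/Chrdl2-high and 188 CPM in remaining GFP− cells, and H2-K1 had ratios of 2.37 in the GFP+ and 1.96 in the GFP− library. H2-Q4, a non-classical member, had ratios of 12.1 (9.73 to 15.01) in the GFP+ and 22.6 (14.3 to 34.4) in the GFP− library. Members of this family have near-identical copies, so the split of counts among them is uncertain.

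Beyond the lists, secreted factors and metabolic enzymes were among the genes with the highest ratios in the GFP+ library that were also past 2-fold in the GFP− library. Ccl19, a chemokine ligand of CCR7 with near-identical copies in its locus, stood at 193 CPM in GFP+ Erfe/Chrdl2-high cells (134 UMIs in 57 cells) and 3.46 CPM in remaining GFP+ cells, a ratio of 55.8 (37.7 to 84.9). In the GFP− library it had 9 UMIs in 9 Erfe/Chrdl2-high cells, 41.3 CPM there against 1.18 CPM in remaining GFP− cells. Tnxb, tenascin X of the matrix, stood at 163 CPM in GFP+ Erfe/Chrdl2-high and 4.003 CPM in remaining GFP+ cells, and at 73.4 CPM in GFP− Erfe/Chrdl2-high and 0.282 CPM in remaining GFP− cells. Nppc, which encodes C-type natriuretic peptide, stood at 377 CPM in GFP+ Erfe/Chrdl2-high cells, where 41 cells held 261 UMIs, and 13.96 CPM in remaining GFP+ cells, and at 284 CPM in GFP− Erfe/Chrdl2-high and 14.6 CPM in remaining GFP− cells. The depth-matched ratios in the GFP+ library were 6.17 for Ccl19, 4.05 for Tnxb and 28.1 for Nppc with cells of cluster number 7. Without them the ratios were 7.79 for Ccl19, 6.57 for Tnxb and 45.5 for Nppc, each on at most a few UMIs of the remaining cells.

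Hsd11b1, the enzyme that regenerates active glucocorticoid, had ratios of 21.8 (16.2 to 29.5) in the GFP+ and 22.4 (14.5 to 33.2) in the GFP− library. Irf8, a transcription factor best known from myeloid cells, stood at 85.1 CPM in GFP+ Erfe/Chrdl2-high and 4.22 CPM in remaining GFP+ cells, and at 77.98 CPM in GFP− Erfe/Chrdl2-high and 2.23 CPM in remaining GFP− cells, and free droplet RNA of the GFP+ library held it at 31.5 CPM. Cp, the copper-carrying ferroxidase ceruloplasmin, stood at 177 CPM in GFP+ Erfe/Chrdl2-high and 12.4 CPM in remaining GFP+ cells, and at 101 CPM in GFP− Erfe/Chrdl2-high and 7.74 CPM in remaining GFP− cells. Gfpt2, the entry enzyme of the hexosamine pathway, had ratios of 13.5 in the GFP+ and 16.7 in the GFP− library, and Abca8b, a lipid transporter, of 13.7 in the GFP+ and 10.4 in the GFP− library. Arl4d, a small GTPase, had ratios of 13.4 in the GFP+ and 17.7 in the GFP− library, the amino acid transporter gene Slc7a8 13.03 in the GFP+ and 32.3 in the GFP− library, and the MAP kinase phosphatase gene Dusp8 12.8 in the GFP+ and 10.7 in the GFP− library. Tmem51 and Pdzd2 had ratios of 20.9 and 15.1 in the GFP+ library. Depth matching turned Arl4d to 0.779 and Slc7a8 to 0.925 in the GFP+ library with cells of cluster number 7.

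The lowest ratios in the GFP+ library were those of Tnnt2, the replication-dependent histone Hist1h2ap and Spp1. Hist1h2ap had 1 UMI in GFP+ Erfe/Chrdl2-high cells against 148 CPM in remaining GFP+ cells, and none in GFP− Erfe/Chrdl2-high cells against 54.02 CPM in remaining GFP− cells. R3hdml, a secreted protein with a CAP domain, had 1 UMI in GFP+ Erfe/Chrdl2-high cells against 116 CPM in remaining GFP+ cells, a ratio of 0.0125 (0.000316 to 0.0697), and none in GFP− Erfe/Chrdl2-high cells against 138 CPM in remaining GFP− cells. The myofibre genes Neb (nebulin), Actc1 (cardiac actin, also of embryonic muscle) and Eno3 (muscle enolase) had ratios of 0.0143 (0.000362 to 0.0799), 0.0172 (0.00208 to 0.0623) and 0.0306 (0.00631 to 0.0897) in the GFP+ library, on 1, 2 and 3 UMIs of the Erfe/Chrdl2-high cells. The mitotic genes Cenpa and Birc5 had ratios of 0.0229 (0.000578 to 0.128) and 0.0362 (0.00437 to 0.131) there. Tm4sf1, a tetraspanin-like membrane protein, and Dpysl3, a cytoskeletal regulator, had ratios of 0.0166 (0.000420 to 0.0928) and 0.0420 (0.0154 to 0.0916) in the GFP+ and 0.447 and 0.484 in the GFP− library.

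The genes called in the 2 libraries were counted together. Of 3022 genes tested in both libraries, 383 were at least 2-fold higher in Erfe/Chrdl2-high cells in each, and 300 were higher in both, which is 78.3% of either list. A total of 283 genes were lower in both, 56.6% of the 500 lower in the GFP+ library and 63.5% of the 446 lower in the GFP− library. A further 6 genes were lower in the GFP+ and higher in the GFP− library, and none went the other way. These counts include the score genes themselves, which chose the cells in both libraries and so are no sign of agreement. Both libraries used the same score, so the direction of genes that accompany the score genes is set in part by the choice of cells.

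**Figure D4:**
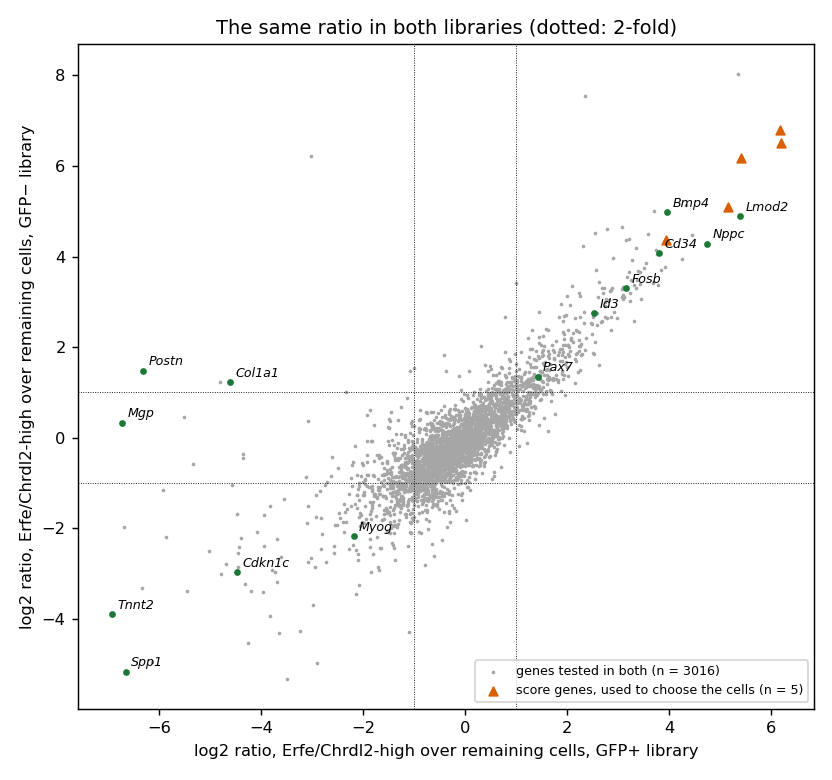
Each point is a gene tested in both libraries. The log2 ratio of Erfe/Chrdl2-high over remaining cells is on the x axis for the GFP+ library and on the y axis for the GFP− library. Triangles are the 5 score genes, dotted lines mark 2-fold, and of features that share a symbol only the first is drawn. Over all features tested in both, score genes included, 300 were past 2-fold at the upper right and 283 at the lower left. Postn and Col1a1 lie at the upper left.

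When the Erfe/Chrdl2-high cells of both libraries were set against each other, 127 of 3232 tested genes (3.93%) were at least 2-fold higher and 260 (8.04%) lower in GFP+ than in GFP− cells. Without cells with RNA of other types, 142 of 3032 (4.68%) were higher and 145 (4.78%) lower. In simulated counts for all Erfe/Chrdl2-high cells of both libraries, 152 of 2831 genes left unchanged were called higher or lower. Their true ratio there had a median of 0.867. How many of the calls in the data are counting error was not tested. Remaining GFP+ and GFP− cells differed in fewer genes, with 30 of 2911 (1.03%) higher and 4 (0.137%) lower, but they held far more UMIs. Pax3 was the only identity gene past 2-fold of 14 tested. Osgin1, an oxidative stress-induced growth inhibitor, stood at 54.8 CPM in GFP+ and 4.59 CPM in GFP− Erfe/Chrdl2-high cells (1 UMI), a ratio of 11.95 (2.02 to 484). Pfkp, the platelet-type phosphofructokinase, stood at 82.2 CPM in GFP+ and 9.17 CPM in GFP− Erfe/Chrdl2-high cells, a ratio of 8.96 (2.37 to 75.8), whereas remaining GFP+ and GFP− cells held 38.8 and 46.5 CPM. Ezh1, a Polycomb methyltransferase of resting cells, had a ratio of 5.98 (1.54 to 51.1), Rcan1, a calcineurin inhibitor, of 4.40 (1.41 to 22.2), and Myef2 of 4.40 (1.63 to 16.7). Ccl19 had a ratio of 4.68 (2.39 to 10.5). Myod1 was higher in GFP+ Erfe/Chrdl2-high cells by a ratio of 2.83 (1.52 to 5.85). Bmp4 was higher by 2.15 (1.17 to 4.33), or 1.81 without cells with RNA of other types. Erfe had a ratio of 1.87 (1.46 to 2.42), but as a score gene it was used to choose both classes. The GFP− class of that ratio includes the cells with RNA of other types, which held no UMI of Erfe.

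Several of the genes lowest in GFP+ relative to GFP− Erfe/Chrdl2-high cells had their UMIs in a single GFP− cell. Sfrp2, a secreted Wnt modulator, had 1 UMI in GFP+ and 331 UMIs in GFP− Erfe/Chrdl2-high cells, all of the GFP− ones in 1 cell. Ptx3, a pentraxin, had 53 of its 54 GFP− UMIs in 1 cell, Eln, elastin, 39 of 40, and the chemokine gene Cxcl10 38 of 38. The Wnt modulator gene Sfrp1 had 70 of 70 UMIs in 1 cell, and the fatty acid binding protein gene Fabp4 stood at 1.44 CPM in GFP+ and 206 CPM in GFP− cells. Mgp, an inhibitor of mineralisation that binds BMPs, was spread over more cells, with 3.13% of its GFP− UMIs in the 7 cells with RNA of other types. It stood at 2.89 CPM in GFP+ Erfe/Chrdl2-high cells (0.349 to 10.4; 2 UMIs) and 440.4 CPM in GFP− Erfe/Chrdl2-high cells (96 UMIs in 8 cells, up to 43 in 1), a ratio of 0.00655 (0.000782 to 0.0243). Without the 7 cells the Mgp ratio was 0.00570, and remaining GFP+ and GFP− cells held 306 and 351 CPM.

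A related class was that of remaining cells with at least 10 per 10000 UMIs of Chodl and Tenm4, of which there were 33 in the GFP+ and 86 in the GFP− library, while 45 GFP+ and 22 GFP− Erfe/Chrdl2-high cells also passed that limit. Pax7 stood at 534 CPM in GFP+ Erfe/Chrdl2-high cells and 564 CPM in GFP+ Chodl/Tenm4-high cells, and at 399 and 349.7 CPM in the GFP− library, so that the level of Pax7 did not set the Erfe/Chrdl2-high cells apart from them. Of 13 identity genes tested in the GFP+ library, none was at least 2-fold higher and 1, Itga7, the integrin alpha 7 chain, was lower, beside 172 of 3059 genes (5.62%) higher and 181 (5.92%) lower in Erfe/Chrdl2-high cells. Of 12 identity genes tested in the GFP− library, Sdc4 was higher (2.02) and Cdh15, the cadherin of myogenic cells, lower (0.497). Against GFP− Chodl/Tenm4-high cells, 342 of 3264 genes (10.5%) were higher and 174 (5.33%) lower. Of 18 quiescence genes tested in the GFP+ library, 4 were at least 2-fold higher and 1 lower, with a median log2 ratio of 0.48. In the GFP− library 3 of 16 were higher and 1 lower, with a median of 0.45. Tenm4 is in the quiescence list and Chodl in the identity list. Both chose the Chodl/Tenm4-high class, so their ratios against it are set in part by that choice. Cd34, Gas1 and Btg2 were higher and Cdkn1c lower in both libraries, and most of the tested list did not pass 2-fold. Cd34 stood at 119.8 and 35.9 CPM in GFP+ Erfe/Chrdl2-high and Chodl/Tenm4-high cells, and at 82.6 and 37.7 CPM in the GFP− library. Immediate-early genes were higher in 11 of 24 cases in the GFP+ and 16 of 23 in the GFP− library, and heat shock genes in 7 of 13 in the GFP+ and 4 of 13 in the GFP− library. Myog and Lmod2 were higher than in Chodl/Tenm4-high cells, with ratios of 11.96 and 10.8 in the GFP+ and 10.1 and 12.7 in the GFP− library. Few Erfe/Chrdl2-high cells held them, 8 GFP+ and 4 GFP− cells for Myog and 35 GFP+ and 3 GFP− cells for Lmod2. No tested gene of the BMP ligand list or of the list of receptors and their Smads differed 2-fold from Chodl/Tenm4-high cells in either library, with Bmp4 at 118 CPM in GFP+ Erfe/Chrdl2-high and 64.1 CPM in GFP+ Chodl/Tenm4-high cells. Of the BMP inhibitors, Fstl1 and Smad7 were higher in the GFP− library, with ratios of 2.70 and 2.59 that include the 7 cells with RNA of other types.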

How the data were processed

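Per the labels' protocols, sorted GFP+ and GFP− satellite cells were loaded at 20000 cells a fraction with the 10x 3′ kit v3.1. The deposited matrices hold whole UMI counts per gene and barcode, unfiltered. Cell Ranger, Seurat and mm10 are named in the submitters' processing notes, and the matrix headers give Cell Ranger version 4. Aligner settings and filters of that run are not stated in the sources used here. There were 13928952 UMIs in the GFP+ library and 49709323 in the GFP− library.

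From the deposited counts, cells were kept with at least 1000 UMIs, 500 genes and at most 10% mitochondrial UMIs. Per 10000 UMIs, Lyz2, C1qa, C1qb and Tyrobp had to sum to less than 10, Rgs5, Myh11 and Kcnj8 to less than 5, and Acta1, Myh3, Mylpf and Tnnt3 to less than 20. Cells with at least 10 of Erfe, Chrdl2, Clmn, Hmcn2 and Atf3 formed the Erfe/Chrdl2-high class. UMIs were summed per library and class. A gene was tested against the fold threshold with at least 50 CPM in either class and 20 UMIs over both, and called at a ratio of at least 2 or at most 0.5. A class with no UMI was set to 3 UMIs. With 1 library a fraction there is no replicate and no p-value. The calculations used scanpy 1.11.5, igraph 0.11.9, scipy 1.17.1 and numpy 2.4.6 under Python 3.11.15, with joint Leiden clustering at resolution 0.6 on 30 components of 2000 variable genes and 15 neighbours, and scrublet for doublets, which were kept. The ratio and thinning steps were tested on simulated data.

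Named genes were those of the rule, up to 4 of each of 19 pathway lists by size of ratio or needed for a role, the 20 highest and 12 lowest ratios in the GFP+ library that passed 2-fold the same way in the GFP− library, and the 8 highest and 8 lowest ratios between the Erfe/Chrdl2-high cells of both libraries. Some genes that the rule names are not reported here. Other genes named were chosen after their values were seen. The cells and lists were chosen with earlier results of these data known. Chodl/Tenm4-high cells, depth-matched cells outside the joint cluster and cells with RNA of other types (endothelial, glial without Pmp22, or fibro-adipogenic without Gsn and Dpt, at least 10 per 10000) were defined after the data were examined. Summed markers of lymphocytes were at 2.89 CPM in GFP+ and 0 in GFP− Erfe/Chrdl2-high cells, and those of neutrophils and erythroid cells at 0 in both. Schwann and glial markers summed to 353 CPM in GFP+ Erfe/Chrdl2-high and 101 in remaining GFP+ cells, and 1202 CPM in GFP− Erfe/Chrdl2-high and 96.4 in remaining GFP− cells, or 397 and 81.001 CPM without cells with RNA of other types. Tenocyte markers, which include Egr1, summed to 1766 and 340 CPM in those GFP+ and to 1587 and 247 CPM in those GFP− classes, and mural markers to 609 and 1556 CPM and to 541 and 1586 CPM. Of the limb position genes, 1 was tested in the GFP+ library and did not pass 2-fold, and of 3 tested in the GFP− library Hoxa10 and Hoxc8 were higher. Proteins of the score genes are not shown here.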

Additional observations from a re-analysis of the deposited data

Results flagged for a closer look

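Col1a1 and Postn, 2 genes of the interstitial matrix, moved in opposite directions in the libraries. Col1a1 in Erfe/Chrdl2-high cells was 0.0411 times its level in remaining cells in the GFP+ library and 2.33 times in the GFP− library. Postn, which encodes periostin, was 0.0126 times its level in the GFP+ library and 2.78 times in the GFP− library. The difference between the libraries was not tested, since each fraction was 1 library. In the GFP− library 96.4% of the Col1a1 UMIs and 98.8% of the Postn UMIs of Erfe/Chrdl2-high cells lay in the 7 cells with RNA of other types.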

How the results depend on the processing

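No paired analysis was possible because each fraction was 1 library. The share of Erfe/Chrdl2-high cells in the GFP+ over the GFP− library was 5.35 with a threshold of 5 per 10000, 17.2 without Atf3 and 7.34 after thinning. In the GFP+ library the genes higher than in remaining cells numbered 789 with a floor of 20 CPM and 114 at matched depth, and the lower ones 1027 and 244, while 340 were higher and 538 lower at matched depth outside the joint cluster. Between Erfe/Chrdl2-high cells of both libraries, the higher genes numbered 313 with a threshold of 20, 269 without Atf3 and 338 with a floor of 20 CPM, and the lower ones 163 with a threshold of 5, 162 with 20, 169 without Atf3, 437 with the joint cluster and 145 without cells with RNA of other types. Fewer cells or genes enter under several of these settings, and other causes were not tested. Of 2586 values of named genes under 13 alternatives, 1910 stayed within a factor of 1.5, 641 moved further and 35 changed direction. In the GFP− library, Tm4sf1 turned to 1.4996 with a threshold of 5 and 15.7 with the joint cluster. Also there, Twsg1 turned to 0.750 and Fstl1 to 0.762 with a threshold of 20, and Fstl1 to 0.861 and Hes1 to 0.932 without Atf3. Col1a1 turned to 0.0693 with a threshold of 20, 0.0335 without Atf3, 0.272 with the joint cluster, 0.610 as a mean over cells and 0.109 without cells with RNA of other types, where Fstl1 was 0.930. With the joint cluster Mki67 was 1.17 in the GFP− library and Rcan1 0.740 between Erfe/Chrdl2-high cells. At matched depth in the GFP+ library, the ratios were Arl4d 0.779, Slc7a8 0.925, Pax3 0.883, Pax7 0.994, Dut 1.57, Ccnd1 0.628, Maff 0.844, Hspa1b 0.577, Bmp6 0.896, Notch3 0.937, F2r 0.912, Bst2 1.89 and Myog 1.19. Outside the joint cluster at matched depth, they were Dut 1.70, Ccnd1 0.728, Hspa1b 0.605, Hes1 0.948, Notch3 0.872 and Bst2 1.79. Hist1h2ap had no UMI in GFP− Erfe/Chrdl2-high cells, so its values of 1.67 and 1.56 at matched depth in the GFP− library are upper bounds that give no direction. Scaling by the median ratio removed a median log2 ratio of −0.12 in each library, so each ratio moved up by that amount, and 517 genes were higher and 411 lower in the GFP+ and 630 higher and 401 lower in the GFP− library. The GFP− class held 217999 UMIs, against 693081 in the GFP+ class, so genes under about 50 CPM rest on few UMIs there.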
